A study of Mus musculus with 8 samples.

Results

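The miR-23, miR-27 and miR-24 clusters were measured here through 6 mature miRNAs of the mouse kidney, out of 1881 mouse miRNAs on the array, taken by name from the probes that are not controls. The cluster with miR-23a gave mmu-miR-23a-3p, mmu-miR-27a-3p and mmu-miR-24-2-5p, the cluster with miR-23b gave mmu-miR-23b-3p and mmu-miR-27b-3p, and mmu-miR-24-3p is made by both. The 8 kidney samples were 4 with ischemia-reperfusion injury (IRI, a model of acute kidney injury; replicates 1, 2, 3 and 18) and 4 from sham-operated mice (replicates 1, 2, 3 and 6), each on a single-colour miRNA microarray. IRI mice lost the right kidney and had the left kidney clamped for 25 or 45 min and collected 12 or 24 h later, whereas sham mice had a midline incision alone, so nephrectomy and injury cannot be told apart. All were C57BL/6 males of 9 weeks under isoflurane, and no transgene, engineered allele or other drug is named. The labels do not tie clamp or harvest times to samples. They also leave out whether the samples of a group came from different mice, and the p-values here therefore cover the spread between samples, which may be technical.

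A miRNA is cut from a hairpin precursor as a short strand that pairs with messenger RNAs through its seed, bases 2 to 8, and lowers their output. The genes of each cluster lie side by side and are transcribed together, so their mature strands share a primary transcript but can still be processed and degraded at different rates. These miRNAs are known for their abundance in endothelial cells and blood vessels. In addition, miR-27 is known to repress the fat cell regulator Pparg, miR-23 to repress glutaminase in human cells, and miR-24 has been studied as a promoter of cell death in the ischemic mouse kidney.

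In RefSeq (GRCm38.p6, plus strand) the 3 hairpins Mir23a, Mir27a and Mir24-2 lie within 404 bases of chromosome 8 (chr8:84208518-84208921), where no other gene of the table overlaps them. Mir23b, Mir27b and Mir24-1 lie within 792 bases of chromosome 13 (chr13:63300484-63301275), overlapping the protein-coding gene Aopep. Of the 6 members, 5 had a mature sequence in RefSeq, and miR-23b-3p is named only. The strands are shown with the seed in capitals, since the seed is what paralogs share, and mmu-miR-24-1-5p, the counterpart of miR-24-2-5p in the other cluster, is added.
mmu-miR-23a-3p: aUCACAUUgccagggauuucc
mmu-miR-27a-3p: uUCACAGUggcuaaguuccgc
mmu-miR-27b-3p: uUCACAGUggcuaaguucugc
mmu-miR-24-3p: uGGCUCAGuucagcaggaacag
mmu-miR-24-2-5p: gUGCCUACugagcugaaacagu
mmu-miR-24-1-5p: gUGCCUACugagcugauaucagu

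miR-27a-3p and miR-27b-3p share their seed and differ at a single base, C19U, counted from the 5′ end of miR-27a-3p. Among mouse miRNAs with a mature sequence in the RefSeq table, no other shares the seed of miR-23a-3p, of the miR-27 pair or of the miR-24 5p arms. miR-23b-3p has none there, so whether it shares the seed of its paralog miR-23a-3p was not examined. The seed of miR-24-3p also occurs in miR-5124b, miR-6369, miR-6410 and miR-6413, and 0 of these 4 were detected on any array. The hairpins Mir24-2 (chr8:84208815-84208921) and Mir24-1 (chr13:63301208-63301275) are shown because the signal of miR-24-3p cannot be split between the clusters: their 3p arms, the second run of capitals, are identical, whereas the 5p arms, the first run, share only their first 16 bases.
Mir24-2: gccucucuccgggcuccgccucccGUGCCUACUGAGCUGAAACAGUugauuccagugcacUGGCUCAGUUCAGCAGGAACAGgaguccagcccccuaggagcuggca
Mir24-1: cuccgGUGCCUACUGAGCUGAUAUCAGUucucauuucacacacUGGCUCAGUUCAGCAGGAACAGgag

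Each member had 2 probes, DNA complementary to the 3′ part of the strand. Paralogs were told apart by a single base near the 5′ end of the probe, in capitals below. Counted from that end it is A3T between the 17-base probes of miR-23a-3p and miR-23b-3p, and G3A between those of miR-27a-3p and miR-27b-3p. The probe of miR-23a-3p and both miR-27 probes cover bases 5 to 21 of their strands. The scanner files place them on mm9 at chr8:86732467-86732482, chr13:63401842-63401857, chr8:86732631-86732646 and chr13:63402073-63402088, in the order shown, each 16 bases long.
miR-23a-3p probe: ggAaatccctggcaatg
miR-23b-3p probe: ggTaatccctggcaatg
miR-27a-3p probe: gcGgaacttagccactg
miR-27b-3p probe: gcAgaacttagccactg
No probe of a member matched another mature mouse miRNA of the table along its whole length. The table lacks the mature miR-23b-3p, so this search could not set the miR-23a-3p probes against it. How much of a paralog binds the other's probe was not measured, so the separate values of miR-23a-3p and miR-23b-3p, and of miR-27a-3p and miR-27b-3p, are uncertain to that extent.

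Values below are scaled signals: background-subtracted spot signals, summed over the probes of a miRNA and divided by a factor that brings all arrays to a common 75th percentile, taken over 317 miRNAs that all 8 arrays detected. IRI arrays detected 393 to 447 miRNAs and sham arrays 327 to 379, and that percentile was, before scaling, 445 to 562 on IRI and 356 to 456 on sham arrays. The precision is limited by 4 arrays per group. All 8 arrays shared 1 slide, with IRI in slide row 2 and sham in row 1, so that row and group cannot be told apart. The IRI samples carried more signal of red blood cell miRNAs: miR-451a, miR-144-3p and miR-486a-5p summed to 2940 to 4087 on IRI arrays and 43.1 to 902 on sham arrays, with 3 of 3 called higher. Kidney tubule miRNAs were miR-192-5p, miR-194-5p, miR-204-5p, miR-30a-5p and miR-200b-3p. They summed to 12610 to 14270 on IRI and 17410 to 20070 on sham arrays, with 5 of 5 called lower. The endothelial pair miR-126a-3p and miR-126a-5p summed to 3836 to 4321 on IRI and 4623 to 5333 on sham arrays, with both called lower (log2 changes of -0.32 and -0.37). Leukocyte miRNAs summed to 724 to 1040 on IRI and 529 to 674 on sham arrays, with 1 of 4, miR-223-3p, called higher (log2 change of 1.53). The others, miR-142a-3p, miR-150-5p and miR-342-3p, had log2 changes of 0.29, -0.57 and -0.14 and were not called. Fibroblast and mural miRNAs summed to 1039 to 1605 on IRI and 1705 to 1877 on sham arrays, with 2 of 4 called lower. These were miR-143-3p and miR-145a-5p (log2 changes of -0.43 and -0.53), whereas miR-199a-3p and miR-214-3p (-0.37 and -0.34) were not called. The liver and muscle markers summed to at most 33.5 and 27.5 on IRI arrays and 0.312 and 39.7 on sham arrays. The liver marker miR-122-5p was not tested. Of the 2 muscle markers, 1 was tested, miR-1a-3p, and it was called lower (log2 change of -0.54). These calls stand against 36.7% of the 379 tested miRNAs called lower and 12.1% called higher (limma, adjusted p below 0.05). Like the sums, they are on the scaled signals: without scaling, 0.264% of tested miRNAs were called lower and 14% higher. The part of these marker shifts in the results was not tested, and in whole tissue fewer cells of a type and less RNA per cell cannot be told apart.

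The comparison of IRI with sham asked whether the clusters changed after injury. With arrays scaled to a common 75th percentile, 4 of the 6 members fell and 2 were not called. The falls were small: miR-23b-3p and miR-27b-3p of the miR-23b cluster were 22.6% and 21.8% lower in IRI, and miR-24-3p and miR-23a-3p were 15.8% and 15.3% lower. miR-27a-3p and miR-24-2-5p of the miR-23a cluster had changes near 0 on this scale. These counts stand against a background in which 36.7% of the 379 tested miRNAs were called lower and 12.1% called higher (limma, Benjamini-Hochberg, adjusted p below 0.05). The median log2 change was -0.24 over the 6 members and -0.11 over all tested miRNAs.

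**Figure D1:**
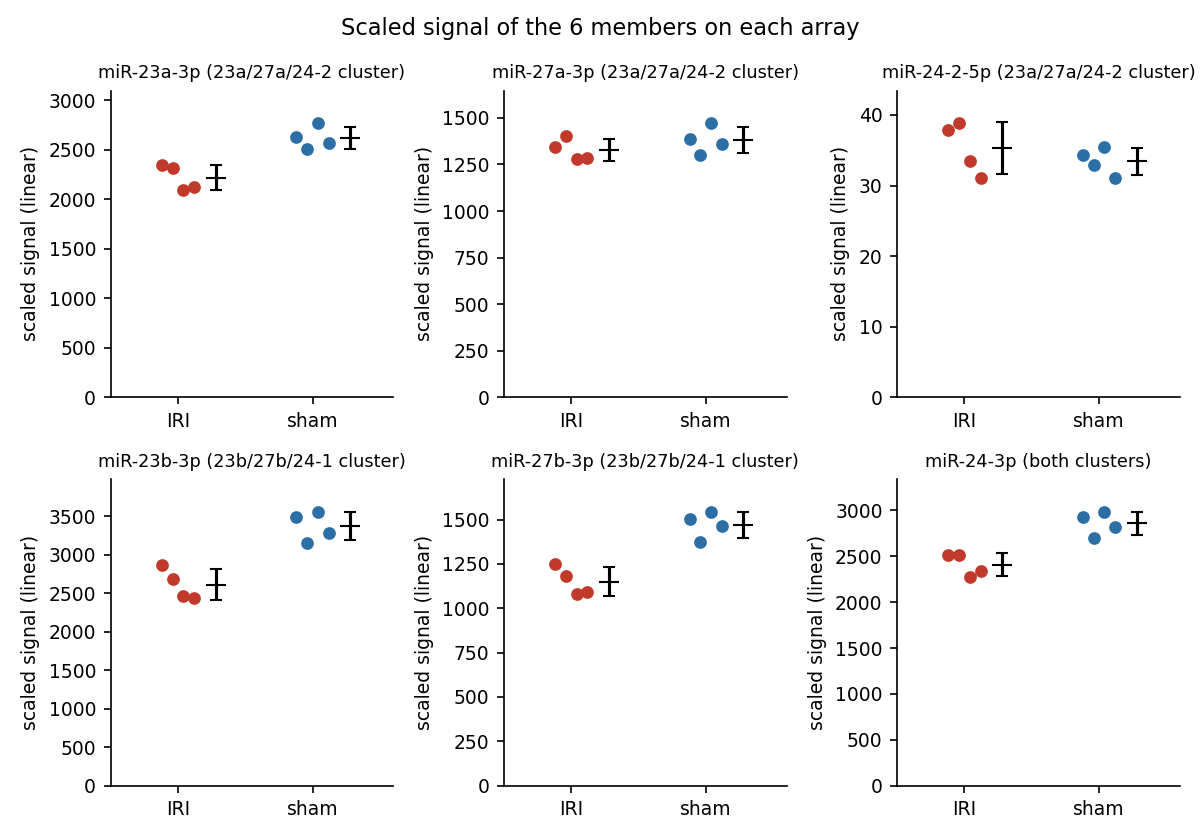
Scaled signal (linear, from 0) of the 6 members, with IRI arrays in red on the left and sham arrays in blue on the right of each panel; points are arrays, and bars beside them show mean ± SD (n = 4). The groups are apart for miR-23a-3p, miR-23b-3p, miR-27b-3p and miR-24-3p, and they overlap for miR-27a-3p and miR-24-2-5p.

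miR-23b-3p had scaled signals of 2862, 2691, 2462 and 2442 on the IRI arrays and 3489, 3160, 3559 and 3285 on the sham arrays. Every IRI array lay below every sham array, and IRI replicate 1 was the highest of its group. The mean was 2614 ± 200 in IRI and 3373 ± 184 in sham (SD, n = 4), and the log2 change of -0.37 ± 0.07 (SE) passed the threshold in limma (adjusted p = 0.00512).

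miR-27b-3p, from the same cluster, had scaled signals of 1249, 1183, 1081 and 1092 on the IRI arrays and 1504, 1372, 1544 and 1466 on the sham arrays. The groups were again apart, with the same array highest in IRI. The mean was 1151 ± 79.3 in IRI and 1472 ± 73.5 in sham (SD, n = 4), which makes a log2 change of -0.36 with an SE of 0.07 (limma, adjusted p = 0.00475).

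miR-23a-3p had scaled signals of 2342, 2314, 2094 and 2125 on the IRI arrays and 2635, 2506, 2768 and 2568 on the sham arrays. The groups did not overlap, but the gap between the highest IRI and the lowest sham array was narrower than for miR-23b-3p. The mean was 2219 ± 127 in IRI and 2619 ± 113 in sham (SD, n = 4), and the change of -0.24 ± 0.06 on the log2 scale (SE) was called by limma (adjusted p = 0.0162). That call ended with slide column as a block (limma, adjusted p = 0.0563) and when dim miRNAs were kept in, for 1881 tests (limma, adjusted p = 0.0531).

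miR-27a-3p had scaled signals of 1343, 1402, 1282 and 1285 on the IRI arrays and 1388, 1301, 1471 and 1361 on the sham arrays. Here the groups overlapped, and IRI replicate 2 lay above 3 of the 4 sham arrays. The mean was 1328 ± 56.5 in IRI and 1380 ± 70.7 in sham (SD, n = 4), and a log2 change of -0.06 ± 0.06 (SE) was not called (limma, adjusted p = 0.477), with a 95% interval of -0.20 to 0.09, which takes in small changes either way.

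miR-24-3p, the strand that both clusters make, had scaled signals of 2514, 2509, 2269 and 2343 on the IRI arrays and 2927, 2702, 2984 and 2821 on the sham arrays. Each IRI array lay below each sham array. The mean was 2409 ± 122.4 in IRI and 2858 ± 124 in sham (SD, n = 4), or -0.25 ± 0.06 (SE) as a log2 change (limma, adjusted p = 0.0125), a size close to that of miR-23a-3p.

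miR-24-2-5p, the opposite arm of the Mir24-2 hairpin, was dim but detected on all 8 arrays. Its scaled signals were 37.9, 38.8, 33.5 and 31.1 on the IRI arrays and 34.3, 32.9, 35.5 and 31.0 on the sham arrays, above the floor of 17.3 set for dim miRNAs. The groups overlapped, and the log2 change of 0.08 ± 0.09 (SE) was not called (limma, adjusted p = 0.492), with a 95% interval of -0.13 to 0.28.

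In all, 4 members had no overlap between groups, each with IRI below sham. Over all tested miRNAs the IRI values lay entirely below the sham values for 35.9% and entirely above for 10.6%.

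**Figure D2:**
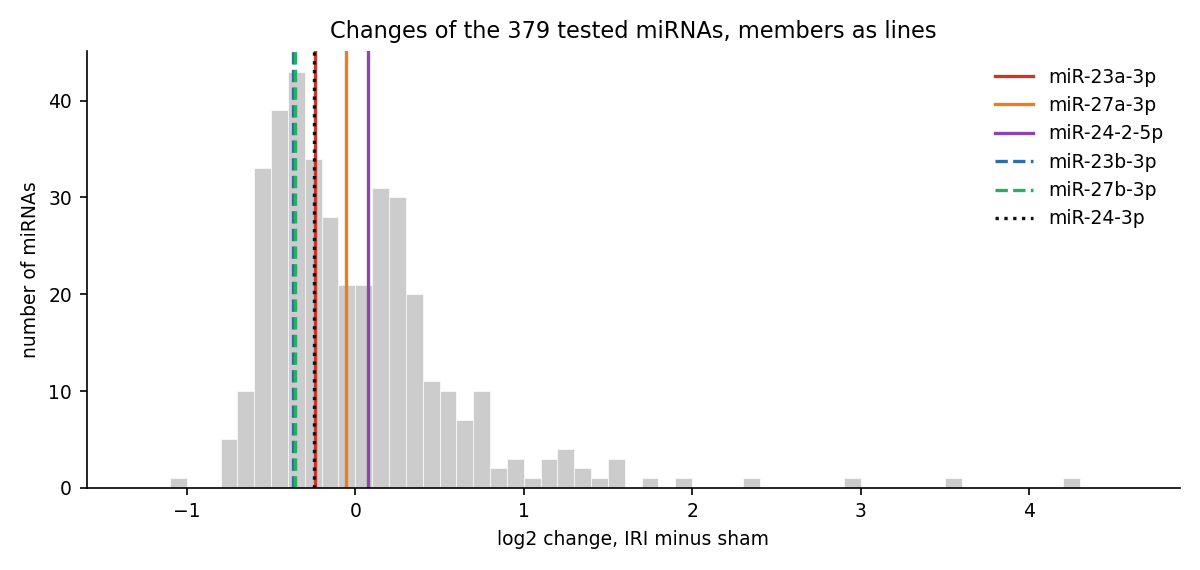
Histogram of the log2 change, IRI minus sham, of the 379 tested miRNAs (grey, bins 0.1 wide), with the 6 members as vertical lines. miR-23b-3p and miR-27b-3p lie in the tallest bin, at about -0.36, miR-23a-3p and miR-24-3p near -0.24, and miR-27a-3p and miR-24-2-5p close to 0.

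The falls rested on the scaling to the 75th percentile. Unscaled, miR-24-3p had signals of 2984, 3147, 2338 and 2325 on the IRI arrays and 2977, 2655, 2467 and 2241 on the sham arrays, which overlap. Without scaling, 0 of the 6 members were called, against 0.264% of tested miRNAs called lower and 14% called higher. The log2 change was then -0.07 for miR-23b-3p and -0.05 for miR-27b-3p, and turned to 0.06 for miR-23a-3p, 0.25 for miR-27a-3p and 0.06 for miR-24-3p, with 0.38 for miR-24-2-5p. Scaled to the labelling spike-in RNAs, 0 members were called as well, against 0.528% of tested miRNAs called lower and 19.8% called higher, and miR-24-2-5p had a log2 change of 0.40. The median log2 change of all tested miRNAs was 0.17 without scaling and 0.19 with the spike-ins. With quantile normalization, which keeps the ranks within an array, 1 member was called, miR-27b-3p at -0.34. Over all 379 tested miRNAs, 128 were still called lower and 47 higher under it. The log2 changes of miR-23a-3p, miR-23b-3p and miR-24-3p were then 0.05, 0.04 and 0.0016. Ranked by signal within an array from the brightest, miR-27b-3p stood at 46 to 48 on IRI arrays and 42 to 43 on sham arrays. miR-23b-3p stood at 20 to 24 on IRI and 22 to 25 on sham arrays, and the ranks of miR-23a-3p, miR-24-3p, miR-27a-3p and miR-24-2-5p overlapped between groups too. The 6 members held on average 1.92% of the summed signal on IRI and 1.83% on sham arrays, which was not tested. That sum is weighted to the brightest entries, such as miR-6366, with a mean scaled signal of 147290 in IRI and 214477 in sham. The share therefore does not show how the members themselves changed. The falls given above are therefore changes against the 75th percentile, and for miR-23a-3p, miR-23b-3p and miR-24-3p they were not seen in rank.

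**Figure D3:**
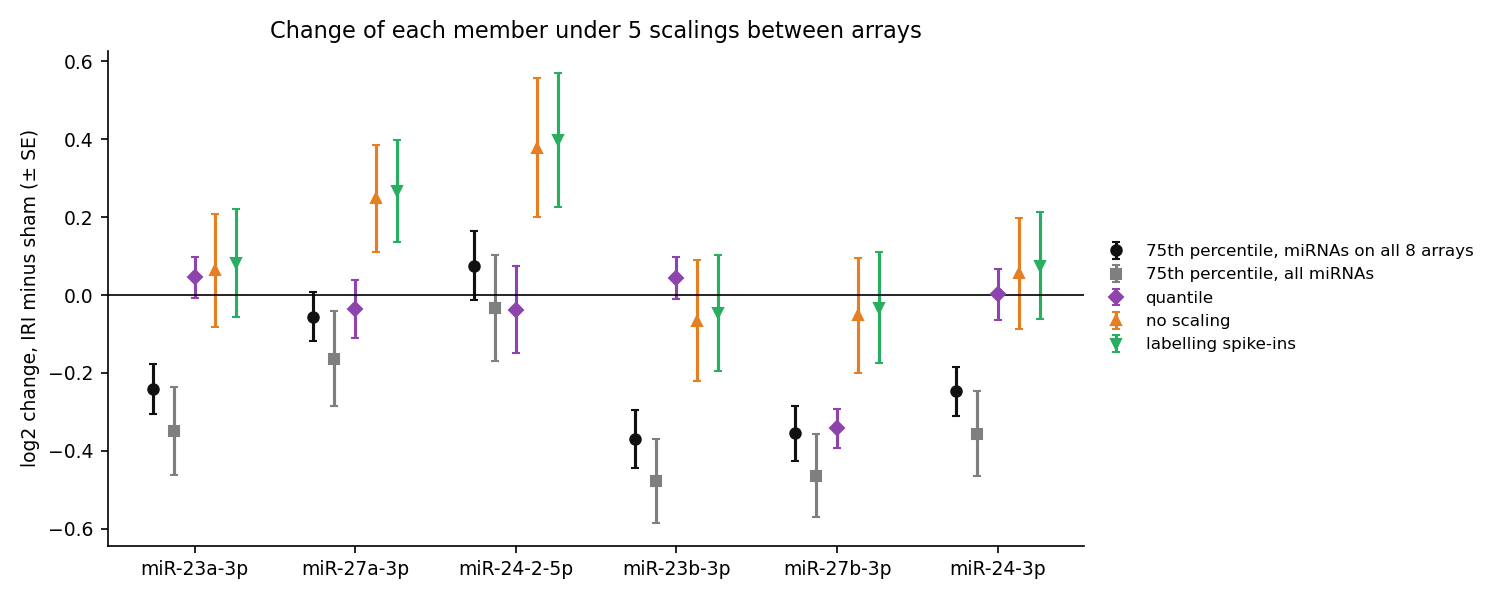
Log2 change, IRI minus sham, of each member (± SE, 4 arrays per group) under 5 scalings between arrays. Points shift together from scaling to scaling, except under quantile normalization. miR-27a-3p lies above miR-27b-3p under all 5, and miR-23a-3p above miR-23b-3p under 4, with both near 0.05 under quantile normalization.

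The second comparison set the 2 clusters against each other. Subtracting the paralogs within an array removes any single factor per array, so this comparison is the same under scalings of that kind, though not under quantile normalization. The levels of different probes cannot be compared, only how their difference shifted between groups. For both paralog pairs the miR-23a cluster member was relatively higher in IRI with scaling by a factor: by 0.13 on the log2 scale for miR-23 and by 0.30 for miR-27.

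miR-27a-3p minus miR-27b-3p was 0.11, 0.24, 0.25 and 0.23 on the IRI arrays and -0.12, -0.08, -0.07 and -0.11 on the sham arrays, as log2 differences. All IRI arrays lay above all sham arrays, with IRI replicate 1 nearest to sham. The means were 0.21 ± 0.07 in IRI and -0.09 ± 0.02 in sham (SD, n = 4), and they differed by 0.30 ± 0.04 (SE), a 1.23-fold shift of the ratio. The two-sided exact permutation test gave p = 0.0286, the least that 70 ways of dividing 8 arrays can give. Its Benjamini-Hochberg value is 0.0286 over the 3 differences of paralogs and miR-24 arms, and 0.0357 over 5 with the within-cluster differences. Within the 4 slide columns, each of which held 1 array of either group, the shift was 0.22 to 0.34.

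miR-23a-3p minus miR-23b-3p was -0.29, -0.22, -0.23 and -0.20 on the IRI arrays and -0.41, -0.33, -0.36 and -0.36 on the sham arrays. The groups did not overlap, although the highest sham and the lowest IRI array were close. The means were -0.24 ± 0.04 in IRI and -0.36 ± 0.03 in sham (SD, n = 4), and they differed by 0.13 ± 0.02 (SE), a 1.09-fold shift of the ratio (two-sided exact permutation, p = 0.0286, adjusted 0.0286 over 3 differences and 0.0357 over 5). Within slide columns the shift was 0.12 to 0.15. With quantile normalization it was 0.0012 (exact permutation test, p = 1).

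**Figure D4:**
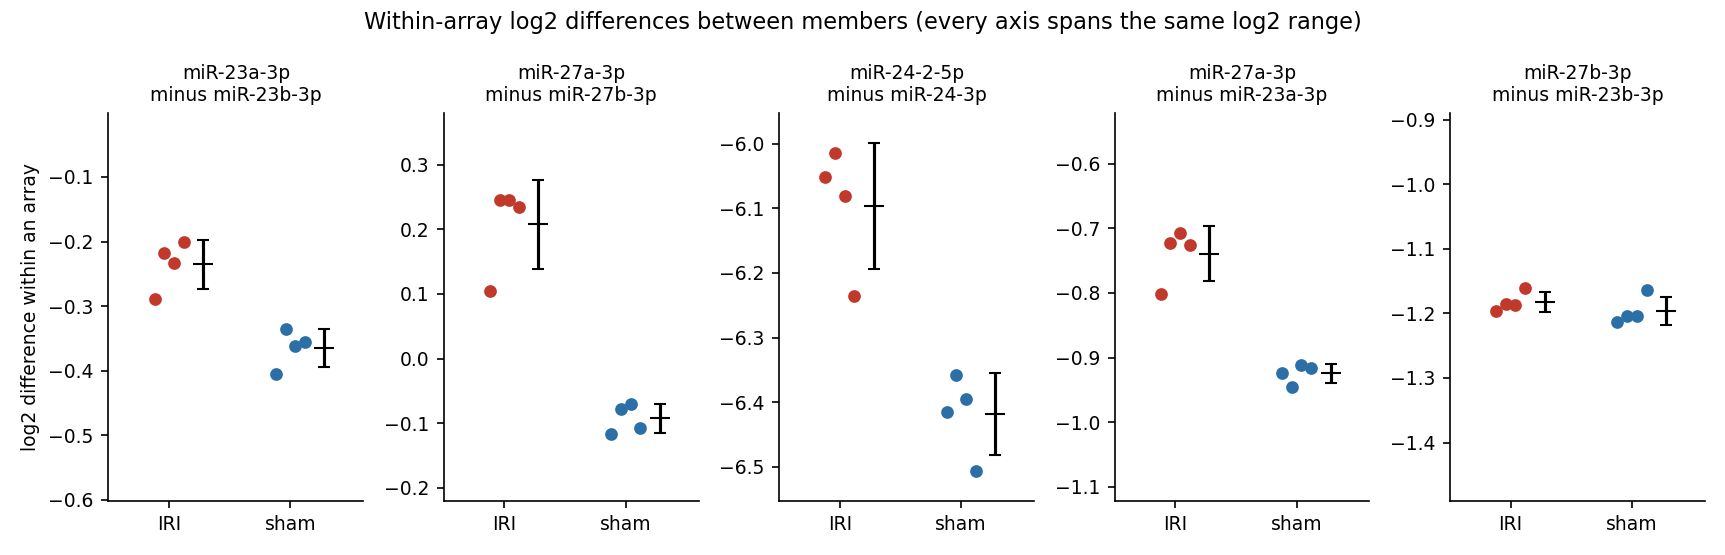
Log2 difference between 2 members within each array, with IRI in red on the left and sham in blue on the right of each panel; points are arrays and bars show mean ± SD (n = 4). Every axis spans the same log2 range, and values are scaled by a factor per array: the groups are apart in the first 4 panels and overlap for miR-27b-3p minus miR-23b-3p. The miR-24 panel rests on a dim miRNA, and its shift was 0.03 with normexp and -0.04 with quantile normalization.

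The shift was also present probe by probe, in a comparison added after seeing the data. The 17-base probes of miR-23a-3p and miR-23b-3p, printed above, gave log2 differences of -1.52 to -1.48 on IRI arrays and -1.67 to -1.56 on sham arrays, a shift of 0.12. The 17-base probes of miR-27a-3p and miR-27b-3p gave -0.12 to 0.02 on IRI and -0.35 to -0.28 on sham arrays, a shift of 0.29. Their 16-base probes, with the same single base between them, gave 0.64 to 0.82 on IRI and 0.37 to 0.49 on sham arrays, a shift of 0.32. In each of these 3 probe pairs the groups did not overlap, with IRI above sham. Among single miRNAs, the IRI values lay entirely below the sham values for 35.9% of those tested and entirely above for 10.6%. How often differences between other miRNAs or probes part the groups was not examined. The lack of overlap, here and for the differences between miRNAs, therefore cannot be called particular to these pairs. All 5 differences between miRNAs and these 3 share the same arrays and are not independent.

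Within a member the 2 probes changed alike. The log2 changes of the probe pairs were -0.38 and -0.35 for miR-23b-3p, -0.36 and -0.35 for miR-27b-3p, -0.26 and -0.23 for miR-23a-3p, -0.25 and -0.24 for miR-24-3p, -0.07 and -0.03 for miR-27a-3p, and 0.07 and 0.08 for miR-24-2-5p. No probe of the miR-23b cluster lay within the range of the miR-23a cluster probes. On each array 11 to 15 spots per probe were averaged, and for the 10 probes of the 5 bright members all spots were well above background on all 8 arrays. For the 2 probes of miR-24-2-5p that held on 3 and 0 arrays.

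**Figure D5:**
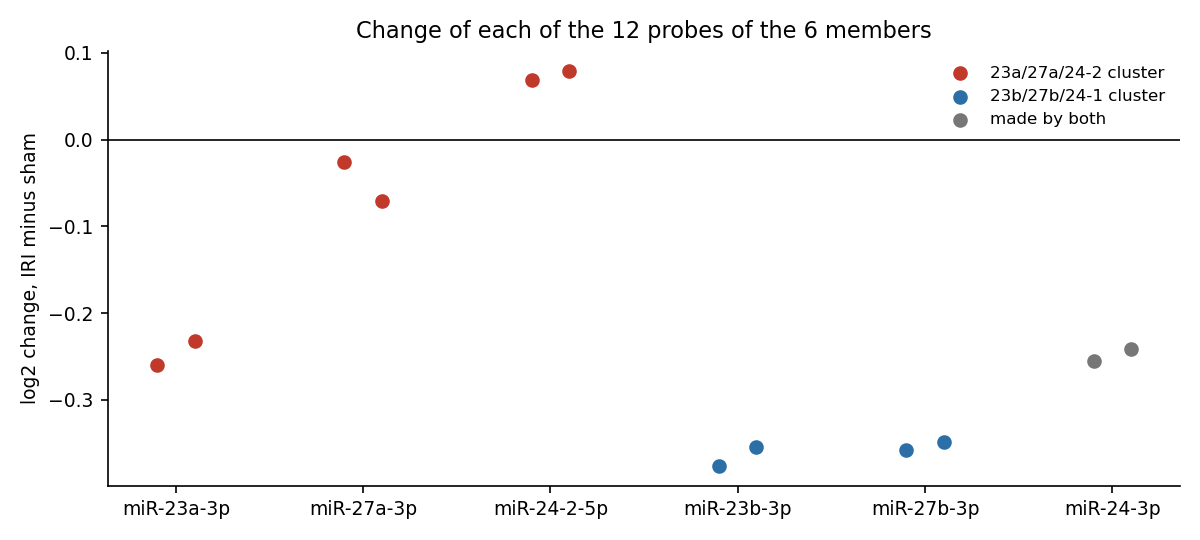
Log2 change, IRI minus sham, of the 2 probes of each member (points), in red for the miR-23a cluster, blue for the miR-23b cluster and grey for miR-24-3p. The 4 miR-23b cluster probes lie between -0.38 and -0.35, below the 6 probes of the miR-23a cluster, which lie between -0.26 and 0.08.

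Neighbours within a cluster were compared as well. In the miR-23b cluster miR-27b-3p minus miR-23b-3p, a comparison added after seeing the data, was -1.20, -1.19, -1.19 and -1.16 on IRI arrays and -1.21, -1.20, -1.20 and -1.16 on sham arrays. These ranges overlap, and the means differed by 0.01 ± 0.01 (SE; two-sided exact permutation, p = 0.343; 0.343 adjusted over 5 differences), with 0.0026 to 0.02 within slide columns. In the miR-23a cluster miR-27a-3p minus miR-23a-3p, added likewise, was -0.80, -0.72, -0.71 and -0.73 on IRI arrays and -0.92, -0.95, -0.91 and -0.92 on sham arrays. Here the groups were apart, with 0.12 to 0.22 within slide columns, and the means differed by 0.19 ± 0.02 (SE; two-sided exact permutation, p = 0.0286; 0.0357 adjusted over 5 differences). Both within-cluster values turned with quantile normalization: miR-27b-3p minus miR-23b-3p shifted by -0.39 (two-sided exact permutation, p = 0.0286) and miR-27a-3p minus miR-23a-3p by -0.08 (p = 0.4, exact). Which neighbours moved together thus depended on the normalization.

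miR-24-2-5p minus miR-24-3p, the 2 arms of the Mir24-2 hairpin with the 3p arm also fed by Mir24-1, was -6.05, -6.01, -6.08 and -6.24 on IRI arrays and -6.42, -6.36, -6.39 and -6.51 on sham arrays. The groups did not overlap, and the shift was 0.32 ± 0.06 (SE, two-sided exact permutation, p = 0.0286, adjusted 0.0286 over 3 differences and 0.0357 over 5). This result is less firm than those of the paralogs, since miR-24-2-5p lay near background: the shift was 0.03 with normexp background correction (p = 0.714, exact), -0.04 with quantile normalization (p = 0.743, exact) and 0.52 with Agilent's total gene signal.

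The other arms of the 6 hairpins gave little or no signal. miR-23a-5p, miR-27a-5p, miR-23b-5p and miR-27b-5p were detected on 0 of 8 arrays, with unscaled signals below 0 on each. miR-24-1-5p, which could report on the miR-23b cluster's own miR-24 hairpin, was detected on 2 of 4 IRI arrays and 1 of 4 sham arrays, with scaled signals of 12.6 to 15.5 on IRI and 12.5 to 16.4 on sham arrays. These lay below the floor, and it was not tested. Of the 5 other arms, 0 were tested.

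Across the 8 arrays the called members had closely similar profiles. Pearson's r of the log2 scaled signal was 0.997 between miR-23b-3p and miR-27b-3p and 0.988 to 0.993 among the other pairs of miR-23a-3p, miR-23b-3p, miR-27b-3p and miR-24-3p (8 arrays, which share the scaling and the group difference). miR-27a-3p correlated less with these 4, at 0.678 to 0.756, and miR-24-2-5p at -0.03 to 0.08. Taken as deviations from the group means, all 15 pairs of members had r of 0.747 to 0.982, values that also hold any error of the scaling.

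Among tested miRNAs outside the clusters, the 3 with the most similar profile to miR-23b-3p were miR-152-3p (r = 0.996), miR-30c-5p (0.995) and miR-140-3p (0.994), over 8 arrays. The same 3 led for miR-27b-3p (0.994 to 0.998) and miR-23a-3p (0.974 to 0.986), and miR-152-3p, miR-30a-5p and miR-30c-5p led for miR-24-3p (0.982 to 0.986). These 4 fell by 0.41 to 0.45 on the log2 scale (adjusted p of 0.00304 to 0.00336, limma), more than any member of the clusters, a contrast that was not tested. They were picked by r over all 8 arrays, which includes the group difference, so falls among them follow in part from the choice. As deviations from the group means, their r with these members was 0.88 to 0.99. For miR-27a-3p the 3 most similar were miR-338-3p (r = 0.947), miR-193b-3p (0.834) and miR-139-5p (0.799), and for miR-24-2-5p miR-29b-1-5p (0.72), miR-139-3p (0.647) and miR-6538 (0.644).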

How the data were processed

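Total RNA with small RNA was extracted from 30 mg of kidney and 100 ng was labelled with Cy3, per the labels' protocols. Spot intensity (linear, background subtracted, not scaled between arrays) was read from the deposited scanner files, which Agilent Feature Extraction 12.0.3.1 wrote, per the file headers. The deposited value table holds a ratio per miRNA. Its scaling and centring are not stated in the labels. Its column medians were 0.658, 0.646, 1.16 and 0.749 for IRI and 0.859, 1.23, 1.29 and 1.3 for sham arrays, and it served only as an alternative. Outlier spots (1422 to 1560 of 56430 per array) were left out, and 0 were saturated. Signals were averaged per probe, summed per miRNA, scaled as described, floored at 17.3 (percentile 5 of detected values) and put on the log2 scale. limma 3.58.1 (R 4.3.3; lmFit, eBayes, two-sided, no covariate, threshold 0.05) was run on 379 miRNAs, those that every array of a group detected. Within-array differences were compared with exact permutation tests. The fit was also run on simulated data with independent noise per miRNA and array, which does not test the scaling between arrays. Other scalings, background corrections, probe summaries, floors, filters, blocks and each array left out were tried as alternatives. Most similar miRNAs were the 3 with the highest r per member. Members, lists and tests were chosen with earlier results of these data known. No arrays held duplicate data. Sequences are from RefSeq and the scanner files. A genome of build mm9 was not used here.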

Additional observations from a re-analysis of the deposited data

Results flagged for a closer look

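The log2 difference of miR-27a-3p minus miR-27b-3p on IRI replicate 1, 0.105, lay far from those of the other 3 IRI arrays (0.24, 0.25 and 0.23), though still above all sham arrays. Its gap to the next array was 0.921 of the group's range, over Dixon's 95% critical value for a group of 4. It was the single such case among 22 groups examined, and chance gives about 1 in 20. Without IRI replicate 1 the shift between IRI and sham was 0.33.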

How the results depend on the processing

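There were 13 other settings that enter the within-array differences. Scalings by a factor, the floors and slide column as a block cannot move the shifts between bright members, by construction. Agilent's total gene signal and the deposited values gave the same paralog shifts as the main setting. The remaining settings were quantile normalization, normexp, the brightest probe and the arrays numbered 1 to 3. Under these the shift of miR-27a-3p over miR-27b-3p kept its direction, at 0.28 to 0.31. It was 0.29 to 0.33 whichever array was left out. That of miR-23 was 0.0012 with quantile normalization, which keeps only ranks, and 0.12 to 0.14 under the rest. The miR-24 arms shifted by 0.0325 with normexp and -0.0397 with quantile normalization; the cause was not tested. Within clusters quantile normalization gave -0.0811 for miR-27a-3p minus miR-23a-3p and -0.387 for miR-27b-3p minus miR-23b-3p, against 0.16 to 0.19 and 0.01 to 0.02 in the other 12. Without scaling the log2 changes were 0.0633 (miR-23a-3p), 0.248 (miR-27a-3p), -0.0657 (miR-23b-3p), -0.0520 (miR-27b-3p), 0.0560 (miR-24-3p) and 0.379 (miR-24-2-5p), with 0 members called and 1 miRNA lower in all. With the spike-ins they were 0.0829, 0.268, -0.0461, -0.0324, 0.0756 and 0.398, in the same order of miRNAs, with 0 members called, 75 miRNAs higher and 2 lower. With quantile normalization miR-23a-3p had 0.0457, miR-23b-3p 0.0445, miR-24-3p 0.0016 and miR-24-2-5p -0.0381. Under it 1 member was called, with 47 miRNAs higher and 128 lower in all. miR-24-2-5p had -0.0330 with the percentile over all miRNAs and -0.15 with normexp, under which 18 miRNAs were higher. The brightest probe gave 0.0103 for miR-27a-3p. Main counts were 46 higher and 139 lower. With all 1881 miRNAs tested they were 21 and 90, and miR-23a-3p (-0.24) lost its call, as with slide column as a block (-0.24).

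Whichever array was left out, 4 members stayed called, with log2 changes of -0.27 to -0.21 (miR-23a-3p), -0.41 to -0.34 (miR-23b-3p), -0.40 to -0.33 (miR-27b-3p) and -0.27 to -0.22 (miR-24-3p). Lower calls also stayed common over all tested miRNAs in each of these fits, as in the main setting (139 lower). That the members stayed called therefore cannot be called particular to them. For the within-array differences, the exact test used, a doubled one-sided p, gives no less than 0.0571 with 7 arrays. Counting splits by size in either direction instead, a choice made after seeing the data, miR-27a-3p minus miR-27b-3p had p = 0.0286 in 8 of 8 cases (exact), miR-23a-3p minus miR-23b-3p in 7 of 8 cases (0.0571 without sham replicate 1), and the miR-24 arms in 6 of 8 (0.0571 without sham replicate 1 or 6). Numbers 1, 2 and 3 occur in either group, and the labels do not say whether same-numbered samples belong together. Their deviations from the group means correlated at r of -0.162, -0.204 and 0.235. So few values of mixed sign cannot settle whether they were paired. With the replicate block, on those 6 arrays, 4 members were called lower, as without the block (miR-23b-3p -0.35, miR-27b-3p -0.34), with 35 miRNAs higher (42 without the block) and 127 lower.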
